A study of Homo sapiens with 42 samples.

Results

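The 6 genes described here encode the enzymes that mark HIF-α proteins for removal or silencing, and the protein that reads that mark. They are EGLN1, EGLN2 and EGLN3 (the prolyl hydroxylases PHD2, PHD1 and PHD3), P4HTM (a prolyl 4-hydroxylase anchored in the membrane of the endoplasmic reticulum), HIF1AN (the asparaginyl hydroxylase FIH) and VHL. They were picked by symbol, with earlier results of these data known, from the 60609 gene rows of count tables made from polyA RNA of 786-O cells. All 6 had enough reads to be tested, among 23410 genes tested in the first batch of libraries and 28724 in the second.

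With oxygen present, the prolyl hydroxylases use oxygen, iron and 2-oxoglutarate to hydroxylate prolines of HIF-α, and VHL binds the hydroxylated protein and brings it to a ubiquitin ligase for degradation. FIH hydroxylates an asparagine in the C-terminal activation domain of HIF-α, which keeps the coactivators CBP and p300 away. EGLN1 and EGLN3 are themselves known HIF target genes, so the pathway feeds back on itself in many cell types. 786-O is a clear cell renal cell carcinoma (ccRCC) line whose VHL protein is inactive, so HIF-2α is stable at normal oxygen, and the line makes no functional HIF-1α.

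Batch 1 held 9 groups and batch 2 held 5, each with 3 libraries, and every group was on the 786-O background described above. Unedited cells (WT) were in both batches. HIF-1β KIN (clone A21) and HIF-2α KIN (clone A31) in batch 1 each were 1 homozygous clone with a V5-Halo tag at the N-terminus of the endogenous protein. The other groups were stable lines that expressed, besides the endogenous HIF-2α, a V5-Halo-tagged HIF-α from a weak L30 promoter, under which the level varied from cell to cell. The labels do not tell apart independently made lines of a construct. The SEs and p-values below thus measure spread among libraries of a group and not among such lines. Both batches had lines with wild-type HIF-1α and with wild-type HIF-2α. Batch 1 added HIF-1α R30E and HIF-2α R27E, whose DNA-binding domains are mutated, and the dimerization mutants HIF-1αDM (R170A and V191D) and HIF-2αDM (R171A and V192D). Batch 2 added chimeras that exchange the structured N-terminal part and the C-terminal part, which is mostly an intrinsically disordered region (IDR). HIF-2α/1α joins residues 1 to 365 of HIF-2α to residues 364 to 826 of HIF-1α, and HIF-1α/2α joins residues 1 to 363 of HIF-1α to residues 366 to 870 of HIF-2α. RNA came from a column kit in batch 1 and from TRIzol in batch 2, and the library kits differed, so levels of the batches are given side by side and not compared.

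The libraries held 42377599 to 101186554 counted reads in batch 1 and 76366799 to 109642159 in batch 2. Levels below are CPM, the read count of a gene relative to the size of its library after TMM scaling within the batch. A change is a log2 difference from an edgeR quasi-likelihood fit over all groups of the batch, "passed" means a Benjamini-Hochberg adjusted p of at most 0.01 over all genes tested, and "called" means passed with a fold of at least 2. HIF1A or EPAS1 was higher in the lines whose titles name its protein, though gene counts do not show the point mutations or chimera junctions. Each gene also averaged above WT with the other wild-type protein. In batch 1 HIF1A stood at 13.5 CPM with HIF-2α and EPAS1 at 342 with HIF-1α. HIF1A averaged 3.6 CPM in WT of batch 1 against 45.2 with HIF-1α, 33.5 with HIF-1αDM and 37.4 with HIF-1α R30E, and EPAS1, the HIF-2α gene, averaged 216 CPM in WT against 665 with HIF-2α, 844 with HIF-2α R27E and 725 with HIF-2αDM. The genotype label of HIF-2αDM names HIF-1α instead, and in that group HIF1A averaged 2.87 CPM. In batch 2 HIF1A averaged 3.27 CPM in WT, 147 with HIF-1α and 10.4 with HIF-2α, and EPAS1 averaged 141 CPM in WT, 475 with HIF-2α and 183 with HIF-1α. The renal markers PAX8, KRT8 and KRT18 were present at 106 CPM or more in every library, VIM and CA12 at 29.3 or more and PAX2 at 6.99 or more. The markers of leukocytes, endothelium, hepatocytes and muscle did not exceed 0.173 CPM, and the neuroendocrine marker SYP did not exceed 1.73 CPM. Since these are bulk samples, a large change in few cells and a small change in many cells cannot be told apart.

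EGLN3, EGLN1 and P4HTM each passed in at least 3 comparisons, and the sequences just before their transcription start sites are shown so that they can be set beside their changes. HIF dimers bind DNA at ACGTG or GCGTG within the hypoxia response element. Both were searched on both strands, together with CACGTG, which holds ACGTG on each strand. Of 35116 RefSeq promoter windows of 250 bases (GRCh38.p14), 18.5% held ACGTG, 32.2% held GCGTG, 43.2% held either and 6.34% held CACGTG. Each window below is printed 5′ to 3′ on the strand of its gene and ends at the base before the start site, with matches in capitals.
EGLN1 promoter, chr1:231422288-231422537, minus strand: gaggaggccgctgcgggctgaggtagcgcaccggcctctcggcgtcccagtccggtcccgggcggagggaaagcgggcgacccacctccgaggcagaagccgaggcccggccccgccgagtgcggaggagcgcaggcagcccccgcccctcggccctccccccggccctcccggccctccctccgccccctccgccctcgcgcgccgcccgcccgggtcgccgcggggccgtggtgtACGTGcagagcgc
EGLN3 promoter, chr14:33951075-33951324, minus strand: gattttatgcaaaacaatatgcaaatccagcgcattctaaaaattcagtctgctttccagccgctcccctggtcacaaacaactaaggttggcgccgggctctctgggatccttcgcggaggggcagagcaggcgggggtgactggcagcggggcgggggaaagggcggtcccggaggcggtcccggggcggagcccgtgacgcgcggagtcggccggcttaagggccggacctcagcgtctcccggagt
P4HTM promoter, chr3:48989658-48989907, plus strand: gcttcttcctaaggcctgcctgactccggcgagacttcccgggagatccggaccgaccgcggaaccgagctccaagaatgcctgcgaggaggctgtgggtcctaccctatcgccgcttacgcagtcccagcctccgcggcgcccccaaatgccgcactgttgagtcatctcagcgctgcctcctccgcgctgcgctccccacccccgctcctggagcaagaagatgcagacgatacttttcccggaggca
The EGLN1 window held 1 ACGTG on the strand of the gene, 9 bases before the start site, and no GCGTG. The windows of EGLN3 and P4HTM held neither, which says only that these letters are not in these 250 bases. Of the other members, EGLN2 has 2 RefSeq windows, and 1 of them held CACGTG, 44 bases before its start site, while the HIF1AN window held no match. The RefSeq start site of EGLN3 lies within the longer gene that GENCODE gives. A promoter entry was found for 5 of the 6 members, and that of VHL was not used here.

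EGLN3 was the member that differed most between groups. PHD3 is an oxygen-regulated prolyl hydroxylase with a preference for the C-terminal of the HIF-α prolines, and its gene lies on chromosome 14 (34462774 down to 33924227 on the minus strand, GENCODE 44, hg38). In the 3 WT libraries of batch 1 it stood at 79, 81.8 and 97.9 CPM. With HIF-2α it stood at 961, 893 and 934 CPM, 10.8-fold above WT (log2 3.43, SE 0.257, adjusted p = 2.08e-10). All 3 HIF-2α libraries were above every other library of the batch, and the group mean of 929 CPM ± 34.3 (SD, n = 3) compared with 86.3 ± 10.2 in WT. With HIF-1α the values were 184, 234 and 183 CPM, and the rise was 2.32-fold (log2 1.21, SE 0.237, adjusted p = 0.000957). Both wild-type proteins thus gave levels above WT with no overlap, and HIF-2α gave 4.64 times the level of HIF-1α (log2 2.21, SE 0.244, adjusted p = 6.14e-07).

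**Figure D1:**
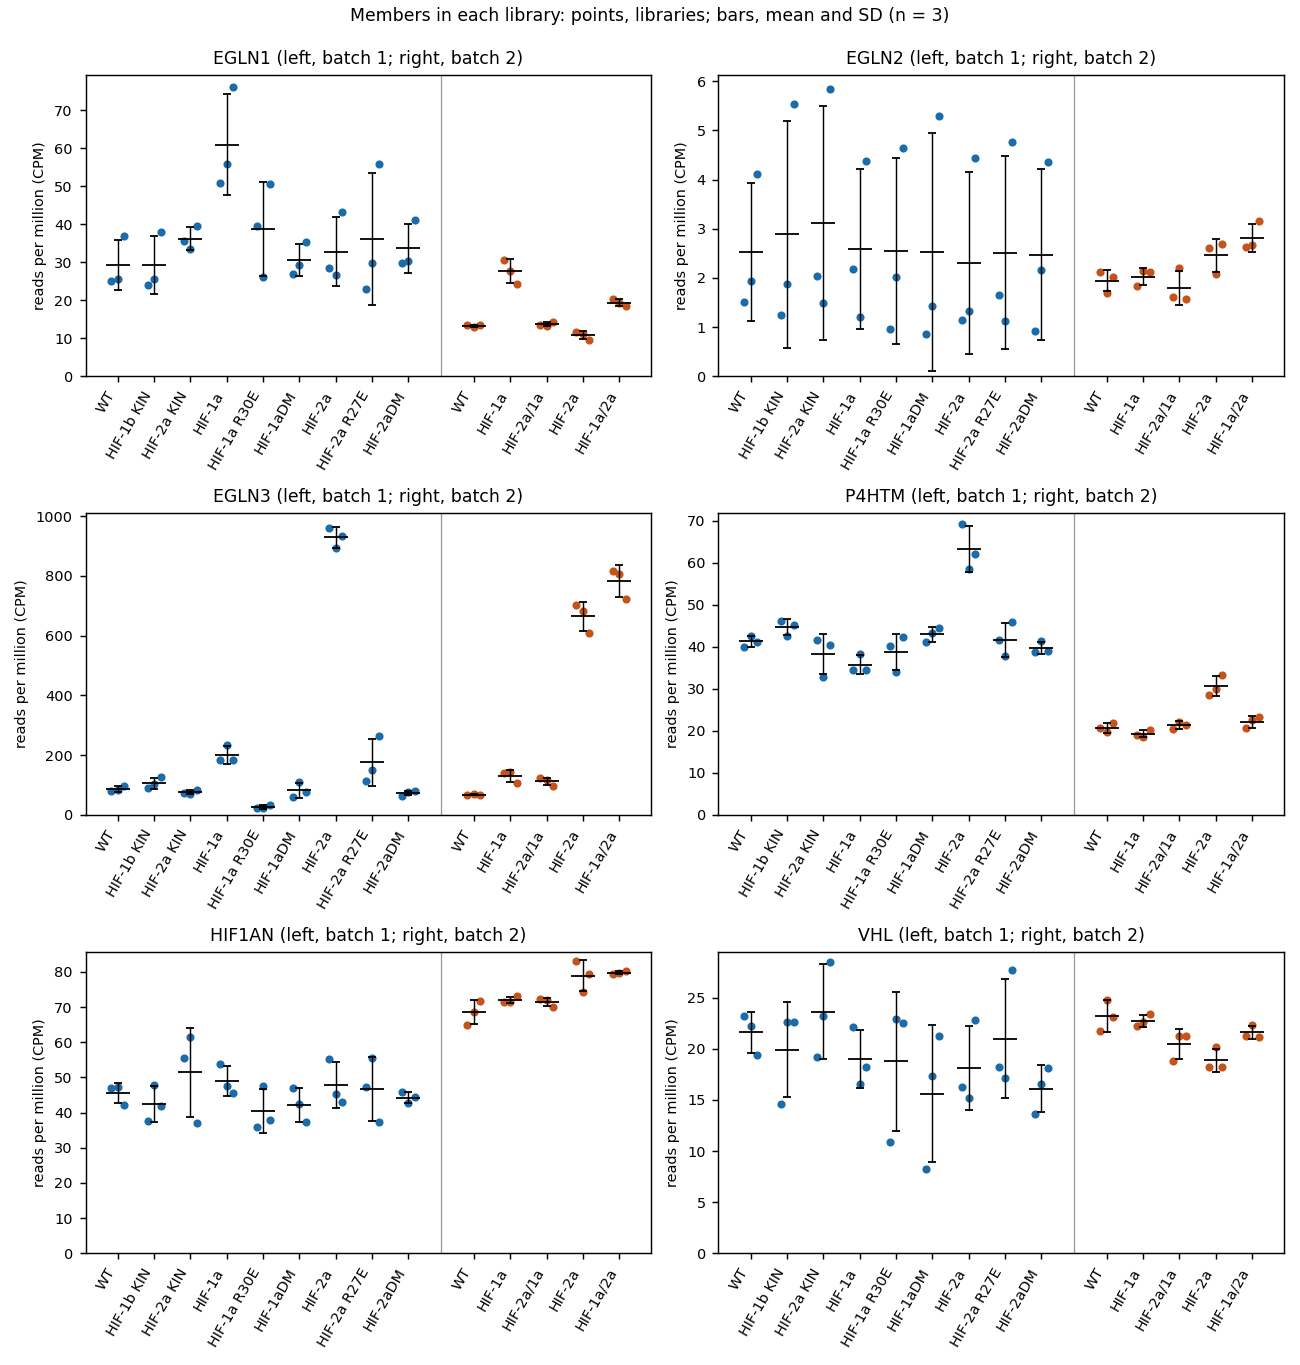
CPM of the 6 members in each library (points) with the mean and SD of each group (bars, n = 3), batch 1 on the left and batch 2 on the right of each panel, with α and β written as a and b. EGLN3 reached 929 CPM with HIF-2α in batch 1 and 783 CPM with HIF-1a/2a in batch 2, against 86.3 and 67.7 CPM in WT.

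The mutants ask whether these rises need DNA binding and dimerization with HIF-1β. With HIF-1α R30E, EGLN3 stood at 24, 22.3 and 32.1 CPM, below every other library of the batch. That is 0.303 times WT (log2 -1.72, SE 0.241, adjusted p = 2.03e-05), so EGLN3 fell with this mutant and rose with wild-type HIF-1α. Wild-type HIF-1α exceeded R30E 7.66-fold (log2 2.94, SE 0.252, adjusted p = 9.43e-09). With HIF-1αDM the values were 61, 110 and 74.6 CPM, which overlapped WT (log2 -0.08, 95% interval -0.56 to 0.4, adjusted p = 0.976). Wild-type HIF-1α was 2.45-fold above HIF-1αDM (log2 1.29, SE 0.238, adjusted p = 0.00117). That call was lost without HIF-1α library 2 (log2 1.17, adjusted p = 0.0119), without HIF-1αDM library 1 (1.12, 0.0214) and without HIF-1αDM library 3 (1.26, 0.0149). These lines also differed in EPAS1, at 342 CPM with HIF-1α, 154 with R30E and 171 with HIF-1αDM, against 216 in WT. The EPAS1 level with HIF-1α was 2.22-fold that with R30E (adjusted p = 0.000461) and 2-fold that with HIF-1αDM (adjusted p = 0.00279). The part of HIF-2α dose in these EGLN3 differences was not tested.

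The HIF-2α mutants differed from one another. With HIF-2α R27E, EGLN3 stood at 113, 149 and 265 CPM, all above WT, and library 3 was well above the other two. The change against WT did not pass (log2 1.03, SE 0.236, adjusted p = 0.0267). It passed with the library number as a block (log2 0.99, adjusted p = 0.00102), with DESeq2 (1.02, 0.00345), with no filter on low counts (1.01, 0.000268) and without R27E library 1 (1.24, 0.00378). Within same-numbered libraries the log2 ratios to WT were 0.52, 0.86 and 1.44. With HIF-2αDM the values were 64.3, 75.3 and 78.9 CPM, all just below the lowest WT library, and the change did not pass (log2 -0.24, SE 0.234, adjusted p = 0.851). Wild-type HIF-2α was 5.29-fold above R27E (log2 2.4, SE 0.246, adjusted p = 9.05e-08) and 12.8-fold above HIF-2αDM (log2 3.67, SE 0.26, adjusted p = 1.03e-10). EPAS1 averaged 665 CPM with wild-type HIF-2α, 844 with R27E and 725 with HIF-2αDM. These reads sum the endogenous gene and the transgene, and the part of transgene dose in the EGLN3 levels was not tested.

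The tagged clones show the level at endogenous HIF dosage. EGLN3 stood at 88.3, 102 and 125 CPM in HIF-1β KIN (log2 0.28, SE 0.234, adjusted p = 0.687) and at 74.2, 70.6 and 81.8 CPM in HIF-2α KIN (log2 -0.19, SE 0.234, adjusted p = 0.702). Both clones overlapped WT, although EPAS1 was lower in HIF-2α KIN, at 92 CPM against 216 in WT. In the order of the 9 group means the HIF-2α group stood first and apart. HIF-1α, R27E, HIF-1β KIN, WT, HIF-1αDM, HIF-2α KIN and HIF-2αDM followed, each overlapping its neighbour, and R30E stood last and apart.

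**Figure D2:**
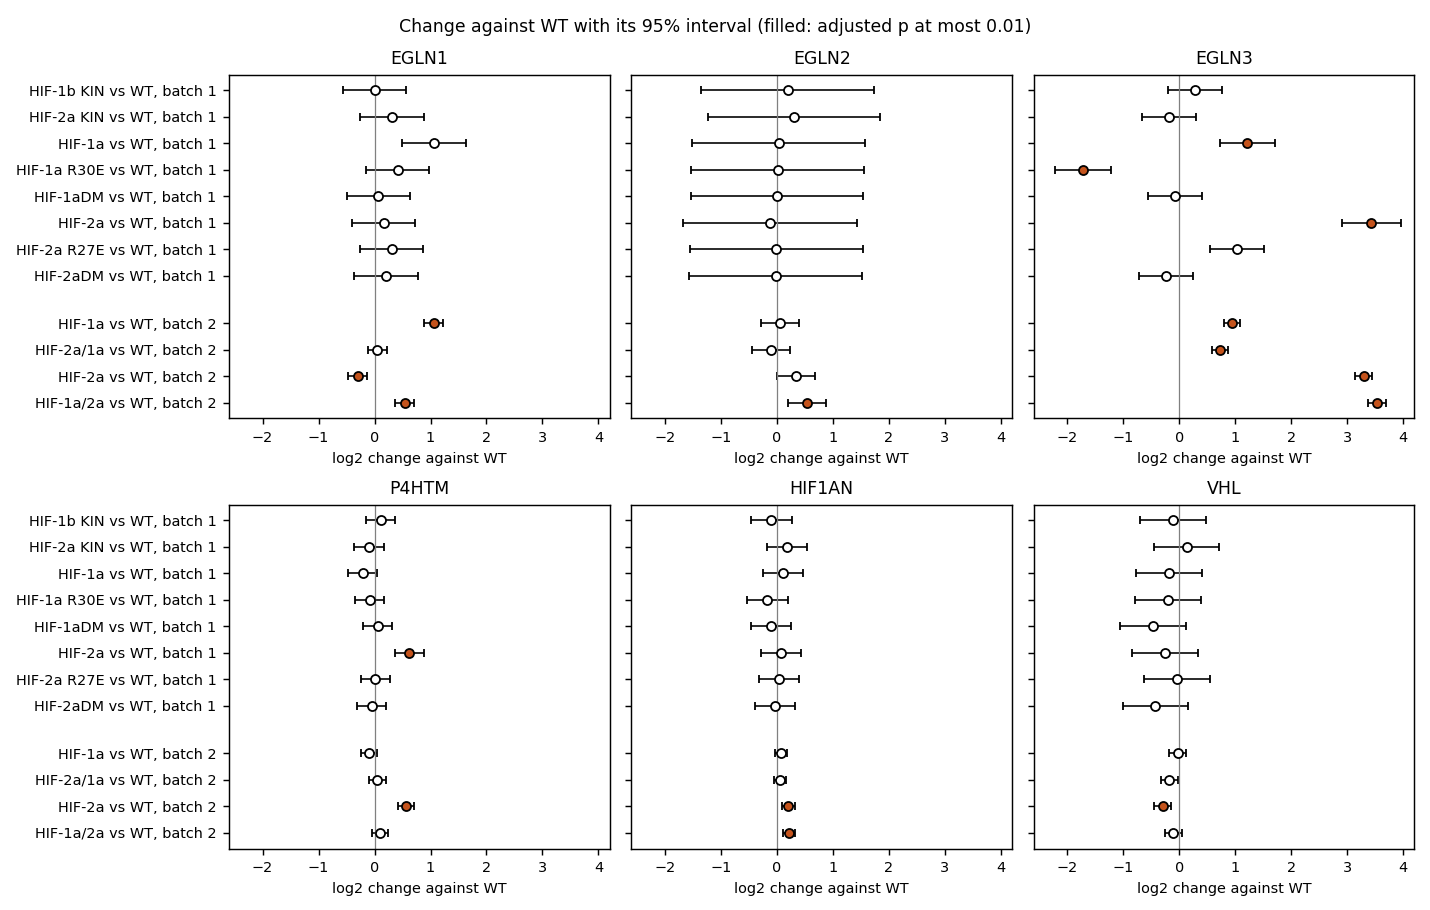
Log2 change of each member against WT of its batch with its 95% interval, from the edgeR fit of batch 1 (9 groups) or batch 2 (5 groups). Filled points passed (adjusted p at most 0.01). EGLN3 runs from -1.72 (HIF-1a R30E) to 3.53 (HIF-1a/2a), and the intervals of EGLN2 in batch 1 are the widest.

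Batch 2 held new libraries of HIF-1α and HIF-2α, and EGLN3 was higher than WT in both there too. WT stood at 66.7, 68.7 and 67.7 CPM. HIF-1α stood at 141, 142 and 107 CPM (log2 0.94, SE 0.0729, 1.92-fold, adjusted p = 1.94e-14), and without its lowest library, number 3, the change was over 2-fold (log2 1.07). HIF-2α stood at 702, 682 and 610 CPM (log2 3.3, SE 0.0782, 9.82-fold, adjusted p = 2.33e-33). No library of one group overlapped another, and HIF-2α was again well above HIF-1α, here 5.11-fold (log2 2.35, SE 0.075, adjusted p = 4.75e-28). In a joint fit of both batches the HIF-1α response was smaller by 0.43 log2 in batch 2 (95% interval of the difference -0.8 to -0.05, adjusted p = 0.896) and the HIF-2α response by 0.27 (-0.65 to 0.1, adjusted p = 0.606), and neither difference passed. The HIF1A rise with HIF-1α was itself 12.5-fold in batch 1 and 44.8-fold in batch 2 (log2 difference 1.68, SE 0.227, adjusted p = 0.00634), so the responses were compared at unequal transgene RNA.

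The chimeras ask which part of the protein the level follows. EGLN3 stood at 122, 116 and 97.8 CPM with HIF-2α/1α, which carries the IDR of HIF-1α, and at 818, 808 and 722 CPM with HIF-1α/2α, which carries the IDR of HIF-2α. Against WT these were rises of 1.65-fold (log2 0.73, SE 0.0729, adjusted p = 6.01e-11) and 11.6-fold (log2 3.53, SE 0.079, adjusted p = 2.12e-34). The lowest library with the HIF-2α IDR, at 610 CPM, was well above the highest with the HIF-1α IDR, at 142 CPM. On HIF-1α structured domains EGLN3 was 6.01-fold higher with the HIF-2α IDR (log2 2.59, 95% interval 2.44 to 2.74, adjusted p = 1.63e-29), and on HIF-2α structured domains 5.94-fold (log2 2.57, 2.42 to 2.72, adjusted p = 2.9e-29). HIF1A averaged 109 CPM with HIF-1α/2α and 107 with HIF-2α/1α against 147 with HIF-1α. EPAS1 averaged 574 CPM with HIF-1α/2α and 475 with HIF-2α, and 232 with HIF-2α/1α and 183 with HIF-1α. A chimera holds only part of either coding sequence, so its CPM cannot be set directly against that of a full-length transgene. The part of the line or of HIF-α dose in these EGLN3 differences was not tested.

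Exchanging the structured domains moved EGLN3 far less. With the HIF-1α IDR the change from HIF-1α to HIF-2α structured domains was -0.22 log2 (95% interval -0.36 to -0.07, adjusted p = 0.0831), and the libraries overlapped. With the HIF-2α IDR it was -0.24 (-0.38 to -0.09, adjusted p = 0.013), and all 3 HIF-2α libraries lay below the HIF-1α/2α libraries. Neither passed. The first passed without HIF-1α library 3 (adjusted p = 0.000483), and the second without HIF-1α/2α library 3 (adjusted p = 0.0018) or in a fit of its 2 groups alone (adjusted p = 0.000453). Both passed with no filter on low counts (adjusted p = 0.000553 and 7.04e-05). The interaction of both parts was -0.02 (95% interval -0.22 to 0.19, adjusted p = 0.972).

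**Figure D3:**
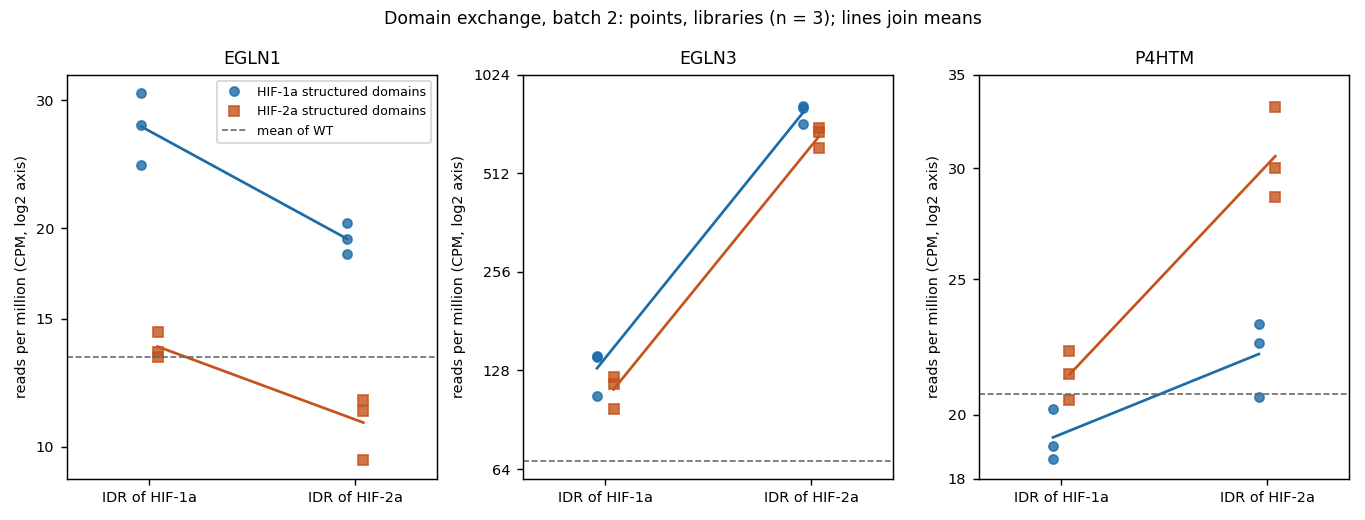
CPM (log2 axis) of EGLN1, EGLN3 and P4HTM in the libraries of batch 2 (points, n = 3 a group, lines join group means), by the IDR on the horizontal axis and by the structured domains as circles (HIF-1a) or squares (HIF-2a), with the WT mean dashed. The EGLN3 lines lie close together and rise about equally, at 130 to 783 and 112 to 665 CPM, the EGLN1 lines lie apart and fall, and P4HTM is high in 1 group, HIF-2a at 30.6 CPM.

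EGLN1 encodes PHD2, the main prolyl hydroxylase that sets HIF-α levels at normal oxygen, and lies on chromosome 1 (231422287 down to 231363751, minus strand). It was highest with HIF-1α in both batches. In batch 1 the WT libraries stood at 25.1, 25.7 and 36.8 CPM and the HIF-1α libraries at 50.9, 56 and 76.1 CPM. The lowest HIF-1α library was above every WT library, but library 3 was the highest in both groups, and the rise of 2.09-fold did not pass (log2 1.06, SE 0.279, 95% interval 0.49 to 1.63, adjusted p = 0.0144). Same-numbered libraries of these groups deviated together over all genes. With the number as a block the change was called (adjusted p = 4.54e-06), as it was with DESeq2 (log2 1.1, adjusted p = 0.00263), with no filter (1.05, 6.2e-06) and in a fit of those groups alone (1.08, 0.0047). Within numbers the log2 ratios were 1.02, 1.12 and 1.05.

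The other EGLN1 levels of batch 1 lay close to WT. With HIF-1α R30E they were 39.5, 26 and 50.7 CPM, and with HIF-1αDM 27, 29.4 and 35.4 CPM. Wild-type HIF-1α lay above both mutants without overlap, by 0.66 log2 over R30E (SE 0.277, adjusted p = 0.261) and 0.99 over HIF-1αDM (SE 0.278, adjusted p = 0.0519), and neither passed. The latter did so with no filter on low counts (adjusted p = 5.48e-05) and in a fit of those groups alone (adjusted p = 0.00521). HIF-2α gave 28.5, 26.7 and 43.2 CPM (log2 0.17 against WT, SE 0.276, adjusted p = 0.76). Against HIF-1α this was lower without overlap (log2 -0.9, SE 0.278, adjusted p = 0.0608), and with the library number as a block that difference passed (log2 -0.91, adjusted p = 7.12e-05), as it did with no filter (log2 -0.88, adjusted p = 0.000527). HIF-2α R27E, HIF-2αDM, HIF-1β KIN and HIF-2α KIN had means of 29.3 to 36.2 CPM, which overlapped the 29.2 ± 6.6 CPM of WT.

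In batch 2 the same rise was measured with a smaller spread, and EGLN1 also moved the other way with HIF-2α. WT stood at 13.4, 13 and 13.4 CPM. HIF-1α stood at 30.7, 27.7 and 24.4 CPM, a 2.08-fold rise (log2 1.06, SE 0.0823, adjusted p = 2.49e-14) that stayed past the test but under 2-fold without HIF-1α library 1 (log2 0.97). HIF-2α stood at 11.6, 11.2 and 9.57 CPM, all below WT, and the fall to 0.812 times WT passed (log2 -0.3, SE 0.0845, adjusted p = 0.00369). This fall is small and was lost without HIF-2α library 3 (log2 -0.22, adjusted p = 0.0548), without WT library 1 (adjusted p = 0.0144) and without WT library 3 (adjusted p = 0.0126). HIF-2α was 0.39 times HIF-1α (log2 -1.36, SE 0.0839, adjusted p = 1.11e-17). The HIF-1α response differed by -0.16 between batches (95% interval -0.69 to 0.37, adjusted p = 0.984) and the HIF-2α response by -0.61 (-1.14 to -0.08, adjusted p = 0.396).

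For EGLN1 the exchange of structured domains gave larger differences than the exchange of the IDR, the reverse of the sizes for EGLN3. HIF-2α/1α stood at 13.5, 13.3 and 14.4 CPM, which overlapped WT (log2 0.05, 95% interval -0.12 to 0.22, adjusted p = 0.744). HIF-1α/2α stood at 20.3, 19.3 and 18.4 CPM, 1.46-fold above WT (log2 0.54, SE 0.0826, adjusted p = 4.93e-07). Both proteins with HIF-1α structured domains thus lay above every WT library. Exchanging HIF-1α for HIF-2α structured domains lowered EGLN1 by 1.01 log2 on the HIF-1α IDR (SE 0.0825, adjusted p = 1.97e-12) and by 0.84 on the HIF-2α IDR (SE 0.0841, adjusted p = 8.09e-11). The first of these fell under 2-fold without HIF-1α library 1 (log2 -0.92), HIF-2α/1α library 1 (-0.99) or HIF-2α/1α library 2 (-0.98). Exchanging the IDR of HIF-1α for that of HIF-2α lowered EGLN1 by 0.51 log2 on HIF-1α structured domains (SE 0.0812, adjusted p = 1.7e-06) and by 0.35 on HIF-2α structured domains (SE 0.0848, adjusted p = 0.00135). The latter was lost without HIF-2α library 3 (log2 -0.27, adjusted p = 0.0255). The interaction was 0.16 (95% interval -0.07 to 0.4, adjusted p = 0.473).

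EGLN2, the gene of PHD1, lies on chromosome 19 (40798996 to 40808434, plus strand) and was the lowest member, with 48 to 465 reads a library in batch 1. Its CPM in batch 1 ran from 0.86 to 5.85, and the library numbered 3 was the highest in 9 of 9 groups. WT, for example, stood at 1.51, 1.94 and 4.12 CPM. The coefficient of variation within groups was 55.4 to 95.6%, and every group overlapped WT. No change in batch 1 exceeded 0.31 log2, with intervals as wide as -1.23 to 1.85, and a 2-fold change of EGLN2 in either direction lay within the interval of every comparison with WT. EGLN1 was also highest in the library numbered 3 in 9 of 9 groups. The libraries numbered 3 held 72801922 to 101186554 reads against 42377599 to 76188914 for the others, and the part of depth or handling in these levels was not tested.

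**Figure D4:**
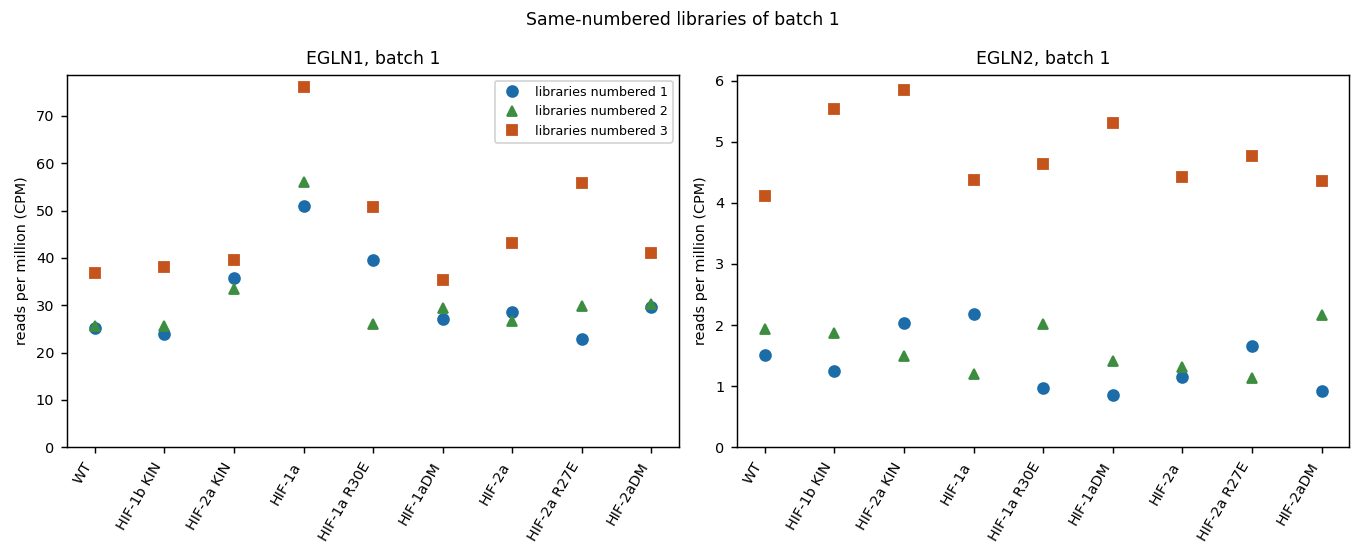
CPM of EGLN1 and EGLN2 in batch 1 by group, with libraries numbered 1, 2 and 3 as circles, triangles and squares. The library numbered 3 is the highest in 9 of 9 groups for both genes.

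In batch 2 the EGLN2 spread was smaller. WT stood at 2.13, 1.7 and 2.01 CPM and HIF-1α/2α at 2.62, 2.67 and 3.15 CPM, all above WT. This 1.45-fold rise passed at the edge (log2 0.53, SE 0.167, adjusted p = 0.0099) and did not pass when any one of the 6 libraries was left out, with log2 changes of 0.44 to 0.6. It also did not pass with median-ratio factors (adjusted p = 0.011) or with no filter (adjusted p = 0.0141). HIF-2α, at 2.6, 2.08 and 2.69 CPM, overlapped WT (log2 0.34, SE 0.169, adjusted p = 0.126). HIF-1α and HIF-2α/1α averaged 2.03 and 1.8 CPM against 1.95 in WT. A read-through gene, RAB4B-EGLN2, shares 2012 of the 6574 exon bases of EGLN2 and had 0 reads in every library. The methods give the union mode of HTSeq, which assigns a read over exons that genes share to none of them. Those 0 reads therefore do not show that the read-through RNA is absent, and EGLN2 reads over shared bases may be missing from its counts.

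P4HTM can hydroxylate HIF-α but sits in the endoplasmic reticulum, apart from the other hydroxylases, and lies on chromosome 3 (48989889 to 49007153, plus strand). It was higher with HIF-2α in both batches. In batch 1 WT stood at 40, 42.6 and 41.2 CPM and HIF-2α at 69.3, 58.5 and 62.2 CPM, with the lowest HIF-2α library above every other library of the batch. The rise was 1.53-fold (log2 0.62, SE 0.127, adjusted p = 0.0011), and it was lost with no filter on low counts (adjusted p = 0.0173) and without HIF-2α library 1 (adjusted p = 0.011). Against HIF-1α, at 34.5, 38.3 and 34.4 CPM, HIF-2α was 1.77-fold higher (log2 0.83, SE 0.128, adjusted p = 8.63e-05). HIF-1α itself lay below WT without overlap but did not pass (log2 -0.21, SE 0.127, adjusted p = 0.402).

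Neither HIF-2α mutant showed the P4HTM rise. R27E stood at 41.6, 37.7 and 45.8 CPM (log2 0.01 against WT, 95% interval -0.25 to 0.28) and HIF-2αDM at 38.8, 41.4 and 38.9 CPM (log2 -0.05, -0.31 to 0.21). Wild-type HIF-2α was above R27E by 0.6 log2 (SE 0.127, adjusted p = 0.00203) and above HIF-2αDM by 0.67 (SE 0.127, adjusted p = 0.000577). The first was lost without HIF-2α library 1 (adjusted p = 0.0191) and without R27E library 2 (adjusted p = 0.0139). It was also lost in a fit of those 2 groups alone (adjusted p = 0.0904) and with no filter (adjusted p = 0.0252). HIF-1α R30E, HIF-1αDM and the clones averaged 38.4 to 44.7 CPM against 41.3 ± 1.29 in WT.

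In batch 2 P4HTM stood at 20.6, 19.6 and 21.9 CPM in WT and at 28.6, 30 and 33.2 CPM with HIF-2α, 1.48-fold higher (log2 0.56, SE 0.0731, adjusted p = 1.37e-08). Neither chimera had this level. HIF-2α/1α stood at 20.5, 22.2 and 21.4 CPM (log2 0.05 against WT, adjusted p = 0.723) and HIF-1α/2α at 20.6, 22.5 and 23.2 CPM (log2 0.1, adjusted p = 0.353), both overlapping WT. HIF-2α was above HIF-2α/1α by 0.52 log2 (SE 0.0732, adjusted p = 2.39e-07) and above HIF-1α/2α by 0.47 (SE 0.0731, adjusted p = 2.5e-06). The same exchanges made in a protein whose other part was from HIF-1α gave 0.2 for the IDR (HIF-1α/2α over HIF-1α, SE 0.0736, adjusted p = 0.04) and 0.15 for the structured domains (HIF-2α/1α over HIF-1α, SE 0.0737, adjusted p = 0.33). The interaction, the difference between the IDR exchanges on HIF-2α and on HIF-1α structured domains, was 0.32 log2 (95% interval 0.11 to 0.53) and did not pass (adjusted p = 0.0413). The part of the line or of HIF-α dose in these P4HTM differences was not tested. The HIF-1α and HIF-2α responses differed between batches by -0.05 and -0.2 (adjusted p = 1 and 0.641).

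HIF1AN, the FIH gene on chromosome 10 (100529072 to 100559998, plus strand), moved little. Its libraries in batch 1 ran from 35.8 to 61.6 CPM with every group overlapping WT (log2 changes of -0.17 to 0.18 against WT). In batch 2 WT stood at 65, 68.6 and 71.8 CPM. HIF-2α stood at 83.1, 74.4 and 79.3 CPM (log2 0.2, SE 0.0556, adjusted p = 0.0027) and HIF-1α/2α at 79.3, 79.8 and 80.2 CPM (log2 0.22, SE 0.0556, adjusted p = 0.00121). Both groups with the HIF-2α IDR lay above every WT library, by 1.15-fold and 1.17-fold. The HIF-2α rise was lost without HIF-2α library 1, WT library 1 or WT library 2 (adjusted p = 0.0569, 0.0344 and 0.0104), and the HIF-1α/2α rise without WT library 1 (adjusted p = 0.019). HIF-1α averaged 72 CPM and HIF-2α/1α 71.4 CPM, both overlapping WT. The exchanges of the IDR, of 0.15 log2 each, did not pass (adjusted p = 0.0405 and 0.0554).

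VHL, on chromosome 3 (10141778 to 10153667, plus strand), encodes the substrate receptor of the ligase, and in this line its RNA is counted although the protein is inactive. In batch 1 it ran from 8.24 to 28.5 CPM with wide overlap. Only HIF-2αDM, at 13.6, 16.6 and 18.1 CPM, lay wholly below the WT libraries at 23.2, 22.2 and 19.4 CPM, and that change did not pass (log2 -0.43, SE 0.286, adjusted p = 0.743). In batch 2 WT stood at 21.7, 24.8 and 23.1 CPM and HIF-2α at 18.2, 20.2 and 18.2 CPM. This fall to 0.813 times WT passed (log2 -0.3, SE 0.0733, adjusted p = 0.000875) and was lost without WT library 2 (log2 -0.25, adjusted p = 0.015). HIF-2α was also below HIF-1α, at 22.2, 22.6 and 23.4 CPM (log2 -0.27, SE 0.0734, adjusted p = 0.00451), a difference lost without HIF-1α library 2 or 3 or HIF-2α library 1 or 3 (adjusted p = 0.0152 to 0.0269). An antisense RNA shares 1173 of the 5001 exon bases of VHL and had 48 to 473 reads. The counting did not use strand, so reads over those bases cannot be assigned to either gene.

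On simulated counts laid out like HIF-2α against WT, 29.4% of rises and 36.4% of falls of 1 log2 passed in batch 1, and 94.1% and 97% in batch 2. Of changes of 0.5 log2, 0% passed in batch 1, and 76.5% of rises and 75.8% of falls in batch 2. In the simulation most changes of these sizes were thus missed in batch 1. Only 33 or 34 genes were changed for each size and direction, while 1871 passed with HIF-2α against WT in batch 1. The adjustment over all genes was therefore stricter in the simulation, and its shares may be too low for the data. Counted over the 6 members, few passed in batch 1. In the contrast of HIF-1α with WT 1 member passed (EGLN3, higher, while 4.79% of all genes tested passed in either direction), with R30E 1 passed (EGLN3, lower, 3.33%) and with HIF-2α 2 passed (EGLN3 and P4HTM, both higher, 7.99%). The fit passed 0 members in HIF-1β KIN (1.78%), HIF-2α KIN (5.89%), HIF-1αDM (0.474%) and HIF-2αDM (0.504%), where 0 also had an unadjusted p under 0.05 and 0 passed with DESeq2. It passed 0 with HIF-2α R27E (0.521%), where 1 member, EGLN3, had an unadjusted p under 0.05 and 1 passed with DESeq2. Between HIF-1α and R30E (2.18%) or HIF-1αDM (1.6%) 1 passed, EGLN3, higher with the wild-type protein. EGLN3 and P4HTM passed, higher with HIF-2α, against R27E (4.99%), HIF-2αDM (5.43%) and HIF-1α (3.07%). Under the stricter rule that also asks for 2-fold, EGLN3 was called with HIF-1α against WT (3.79% of all genes) and against HIF-1αDM (1.37%), and 0 members were called with R27E (0.496%).

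Batch 2 had a smaller spread, and a larger share of all genes passed there, against which the members' counts are given. Against WT 2 members passed with HIF-1α (EGLN1 and EGLN3, both higher, 17.2% of all genes in either direction) and 1 with the chimera HIF-2α/1α (EGLN3, higher, 16.7%). With wild-type HIF-2α 5 passed, 3 higher and 2 lower (27.4%), and with the chimera HIF-1α/2α 4 passed, all higher (27.8%). Between HIF-2α and HIF-1α 4 passed, 2 in each direction (17.6%). The exchange to the HIF-2α IDR passed 2 members on HIF-1α structured domains (EGLN3 higher and EGLN1 lower, 20.3%), and 3 on HIF-2α structured domains (EGLN3 and P4HTM higher, EGLN1 lower, 16.1%). The exchange to HIF-2α structured domains passed 1 with the HIF-1α IDR (EGLN1, lower, 2.16%), and 2 with the HIF-2α IDR (P4HTM higher and EGLN1 lower, 13.7%). EGLN1 was the 1 member called with HIF-1α against WT (4.39% of all genes called) and the 1 called between HIF-2α/1α and HIF-1α (0.543%), the contrasts of batch 2 in which the number of members called moved with the processing. Its largest change, -1.36 between HIF-2α and HIF-1α, was also called. The median log2 change of the 6 members was 0.06 with HIF-1α (0.03 over all genes tested), 0.05 with the chimera HIF-2α/1α (0.03), 0.27 with wild-type HIF-2α (0.07) and 0.38 with the chimera HIF-1α/2α (0.08). The interaction passed 0 members with edgeR or DESeq2, with 1 at an unadjusted p under 0.05 (5.37% of all genes passed). The differences between batches passed 0 with either tool, with 1 at an unadjusted p under 0.05 for HIF-1α (0.00374%) and 1 for HIF-2α (0%).

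Per kilobase of exon bases not shared with another gene, the WT levels of batch 1 were 12.3 CPM for EGLN1, 11.7 for EGLN3, 5.65 for VHL, 5.54 for P4HTM, 3.35 for HIF1AN and 0.554 for EGLN2. The exon lengths are from a later GENCODE release than the counts, so levels per kilobase are approximate. With HIF-2α the level of EGLN3 per kilobase was 126 CPM, and it was the highest of the 6. In WT of batch 2 they were 9.19 for EGLN3, 6.06 for VHL, 5.59 for EGLN1, 5.05 for HIF1AN, 2.78 for P4HTM and 0.427 for EGLN2. For EGLN1, 3004 of 5381 exon bases overlap a gene that had 0 or 1 reads a library, and reads over those bases may be missing from the counts of both genes. Over all exon bases the level of EGLN1 was 5.43 CPM per kilobase in batch 1 and 2.47 in batch 2. On that scale EGLN3, at 11.7, was the highest member in WT of batch 1, and EGLN1 fell below HIF1AN (4.93) and P4HTM (2.71) in batch 2. Levels of several members moved together over libraries as a description. Pearson's r of log2 CPM between EGLN3 and P4HTM was 0.699 over 27 libraries of batch 1 and 0.626 over 15 of batch 2, and between EGLN1 and P4HTM it was -0.199 and -0.697. These libraries share groups and, by number, depth, so the values are not independent.

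The genes whose log2 CPM followed EGLN3 most closely in batch 1, among 12683 genes with enough reads, were EGR2 (r = 0.984), NDRG1 (0.972) and ENPEP (0.957). In batch 2, among 14035, they were DEPP1 (0.995), APCDD1L-DT (0.994) and SLC6A6 (0.993). For EGLN1 in batch 2 they were FAM162A (0.975), RNF145 (0.952) and PPP1R3G (0.93), and in batch 1 PPP1R16A (0.909), THAP8 (0.876) and ZNRF1 (0.869). P4HTM was followed by LFNG (0.967), SLITRK2 (0.957) and CUX1 (0.949) in batch 2 and by NOTUM (0.899), SCARB1 (0.868) and GALNT2 (0.864) in batch 1. The lists of the batches have no gene in common for these 3 members. Each list holds only 3 genes and the batches held different groups, so this does not show that the co-varying genes differ. For EGLN2 in batch 1 KRTCAP2 led (0.957), for HIF1AN in batch 2 MYL12B (0.953), and for VHL in batch 2 PNRC2 (0.925).

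The genes around EGLN3 were looked at because chromosome 14 as a whole was higher in some lines. In batch 2 its 899 tested genes had a median log2 change against WT of 0.46 with HIF-1α/2α, 0.2 with HIF-2α, 0.11 with HIF-1α and 0.03 with the chimera HIF-2α/1α. The 13 tested genes within 1 Mb of the EGLN3 start site had medians of 0.49, 0.38, 0.14 and 0.01 in that order, against 3.53, 3.3, 0.94 and 0.73 for EGLN3 itself. With HIF-2α 4 of the 13 passed, each under 2-fold. With HIF-1α/2α 7 passed and 2 were called, both of them from few reads, NPAS3 at 9 to 14 reads a library against 0 or 1 in WT and EGLN3-AS1 at 16 to 34 against 0 to 4. The other 11 lay between -0.36 and 1.25. In batch 1 the 11 tested neighbours had a median of 0.41 with HIF-2α, and chromosome 14 a median of 0.06. Chromosome 14 was also higher in HIF-2α KIN (median 0.34, with 0.28 over the 11 neighbours), where EGLN3 differed from WT by -0.19. The part of the chromosome-wide shift in the EGLN3 values was not tested, and within batch 1 the EGLN3 change with HIF-2α was 3.43.

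**Figure D5:**
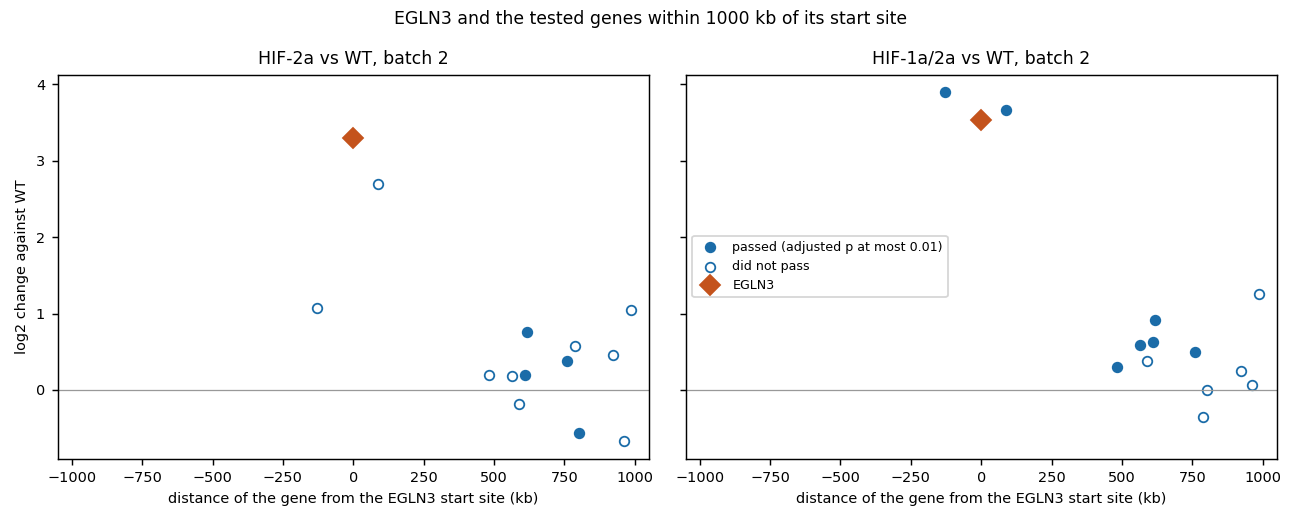
Log2 change against WT in batch 2 of EGLN3 (diamond) and of the 13 tested genes within 1000 kb (circles, filled where adjusted p was at most 0.01), by distance of the nearest edge of the gene from the EGLN3 start site in kb, positive toward higher coordinates. EGLN3 stands at 3.3 with HIF-2a and 3.53 with HIF-1a/2a, and the genes 482 kb or further away lie between -0.67 and 1.25.

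Genes that work with the members were counted as 5 lists in the same fits. In batch 2 the median log2 change of all genes tested was 0.08 with HIF-1α/2α, 0.07 with HIF-2α, 0.03 with HIF-1α and 0.03 with the chimera HIF-2α/1α, and list medians are given in that order. The share of all genes that passed in either direction was 27.8, 27.4, 17.2 and 16.7% in that order. The counts of all 5 lists are to be read against these shares, and in batch 1 against those given with the member counts. The VHL ligase and its helpers (10 genes, among them ELOB, ELOC, CUL2 and RBX1) had 0 passed against WT in any group of batch 1, with 0 to 2 at an unadjusted p under 0.05 and 0 or 1 passed with DESeq2. In batch 2, 3 rose and 4 fell with HIF-1α/2α, 2 rose and 3 fell with HIF-2α, and 1 rose and 3 fell with either protein that has the HIF-1α IDR. Each was under 2-fold, and the medians were -0.02, -0.07, -0.09 and -0.06. The genes of the coactivators that FIH keeps from HIF-α (CREBBP and EP300) were listed with CITED2 and CITED4. This list had 0 passed in batch 1, with 0 to 2 at an unadjusted p under 0.05 and 0 passed with DESeq2. In batch 2, 1 fell in each of the 4 lines and 1 rose in all but HIF-2α/1α (medians 0.21, 0.09, 0.04 and -0.02). CITED4, which competes with HIF-α for CBP and p300, was the called one, at 0.872 CPM with HIF-1α against 0.376 in WT (log2 1.22, SE 0.333, adjusted p = 0.00468). It did not pass with HIF-1α/2α (adjusted p = 0.065), HIF-2α (0.422) or HIF-2α/1α (0.834), so the gene that rose with HIF-1α/2α and HIF-2α was another.

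Of the 11 listed partners and turnover factors of the hydroxylases 10 were tested. In batch 1, 1 rose with HIF-1α and 2 with HIF-2α, and 0 passed in the other 6 groups, with 0 to 2 at an unadjusted p under 0.05 and 0 passed with DESeq2. In batch 2, 5 rose and 3 fell with HIF-1α/2α, 5 rose and 4 fell with HIF-2α, and 4 rose and 1 fell with either protein that has the HIF-1α IDR. The list medians in batch 2 were 0.28, -0.04, 0.03 and 0.04. WTIP and LIMD1 encode LIM-domain proteins, and LIMD1 is a scaffold that joins PHD proteins to VHL. WTIP averaged 0.589 CPM in WT of batch 1, 3.77 with HIF-1α (log2 2.67, SE 0.441, adjusted p = 0.000139) and 3.93 with HIF-2α (log2 2.73, SE 0.443, adjusted p = 6.49e-05). In batch 2 it went from 0.215 CPM in WT to 5.51 with HIF-1α/2α, 1.29 with HIF-2α, 1.33 with HIF-1α and 0.624 with the chimera HIF-2α/1α, all called. LIMD1 went from 13.7 CPM in WT to 26.5 with HIF-2α (log2 0.95, SE 0.0787) and 65 with HIF-1α/2α (log2 2.25, SE 0.0797, adjusted p = 7.75e-27), and in batch 1 from 18.5 to 33.5 with HIF-2α (log2 0.86, SE 0.215, adjusted p = 0.00663). With HIF-1α it passed higher in batch 2 (log2 0.46, adjusted p = 8.94e-06), as it did with HIF-2α/1α (0.38, 0.000187), and did not pass in batch 1 (0.24, 0.613).

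The enzymes and carriers that supply 2-oxoglutarate and ascorbate or set succinate and fumarate (15 genes) had 1 or 2 passed in 4 groups of batch 1, all higher than WT, and 0 passed in the clone HIF-1β KIN, both dimerization mutants and R27E, with 1 to 3 at an unadjusted p under 0.05 and 0 passed with DESeq2. In batch 2, 2 rose and 4 fell with HIF-1α/2α, 4 rose and 4 fell with HIF-2α, 2 rose and 4 fell with HIF-1α, and 2 rose and 2 fell with HIF-2α/1α (medians -0.01, -0.07, -0.02 and 0.06). IDH1, which makes 2-oxoglutarate in the cytosol, averaged 148 CPM in WT of batch 2 and 71.4, 74.4, 89.3 and 97.1 CPM in the 4 lines in the same order (log2 -1.05, -0.99, -0.72 and -0.6). In batch 1 IDH1 did not pass in any group, with 34.7 CPM with HIF-2α against 64.4 in WT (log2 -0.89, SE 0.359, adjusted p = 0.105). D2HGDH, which turns D-2-hydroxyglutarate into 2-oxoglutarate, averaged 4.22 CPM in WT of batch 2 and 7.95 to 8.87 CPM in the 4 lines, and all 4 passed. In batch 1 it rose from 9.15 CPM to 18.9 with HIF-1α, 21.1 with R30E, 17.5 with HIF-2α and 19 in HIF-2α KIN. The ascorbate transporter gene SLC23A1 was called in batch 1 with HIF-1α and in HIF-2α KIN, at 0.538 and 2.62 CPM against 0.0597 in WT (log2 3.22 and 5.5), a WT level that lies within the range of CPM to which 3 reads correspond. In batch 2 it did not pass, with 0.136 CPM with HIF-1α against 0.118 in WT (log2 0.2, SE 0.676, adjusted p = 0.902).

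The other 2-oxoglutarate oxygenases (12 genes, of the JmjC and related families) had passed members against WT in 2 groups of batch 1. HIF-2α KIN had 2 higher and 1 lower, and HIF-2α had 2 lower, and 0 passed in the other 6 groups, with 0 to 3 at an unadjusted p under 0.05 and 0 passed with DESeq2. In batch 2, 3 rose and 2 fell with HIF-1α/2α, 3 and 4 with HIF-2α, 2 and 3 with HIF-1α, and 3 and 3 with HIF-2α/1α (medians 0.02, -0.08, 0.18 and 0.06). HSPBAP1, a JmjC-domain protein, was called lower with HIF-2α in both batches, at 0.677 CPM against 1.64 in WT of batch 1 (log2 -1.26, SE 0.307, adjusted p = 0.00536) and 1.3 against 2.93 in batch 2 (log2 -1.17, SE 0.184, adjusted p = 9.42e-07). In batch 2 it also passed lower with HIF-2α/1α (log2 -0.93, adjusted p = 8.55e-05) and HIF-1α (-0.68, 0.00301), and did not pass with HIF-1α/2α (-0.54, 0.0135).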

How the data were processed

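PolyA RNA was sequenced from 42 cultures of 786-O cells, 3 per group, in 2 batches (27 and 15 libraries). The deposited files hold raw read counts per gene. Per the labels and methods, the authors aligned reads to hg38 with STAR (2.7 in the processing notes), kept uniquely mapped reads and counted them per GENCODE gene with HTSeq (0.11.1) without strand, so a gene and its antisense partner, and exons that genes share, cannot be separated. ERCC spike-in was added in batch 1 only and was not used here.

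Counts were fitted with edgeR 4.0.16 (R 4.3.3, limma 3.58.1), separately for each batch and with all its groups sharing 1 estimate of the spread, after TMM scaling (factors 0.822 to 1.16 and 0.963 to 1.03) and removal of genes with a mean normalized count under 0.5. Differences between batches came from 1 fit of the 3 groups that both batches hold (WT and the lines with a wild-type transgene). Tests were two-sided, with Benjamini-Hochberg adjustment over all genes tested. The thresholds follow the study's methods, which used DESeq2. DESeq2 1.42.0, median-ratio factors, no filter, a fit of the compared groups alone, the library number as a block and leaving out each library were tried as alternatives, and the scripts were tested on simulated data. A count of 3 reads corresponds to 0.0296 to 0.0708 CPM in batch 1 and 0.0274 to 0.0393 in batch 2, which covers counting error only.

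The members and gene lists were chosen with earlier results of these data known. Named list genes are those called against WT, up to 3 a list by size of change in each batch, and the genes most like a member are the 3 with the highest correlation of log2 CPM among genes with a mean count of at least 50. No 2 replicates were identical or agreed within counting noise in 42 pairs (chi-square per degree of freedom 4.51 to 474). The methods call the replicates biological. Same-numbered libraries deviated together (correlation over 0.1) in 32 of 39 pairs of batch 1 (mean 0.242), with all 3 pairs over 0.1 in 7 of 13 comparisons, and in 0 of 27 pairs of batch 2 (mean 0.00497). The numbers were taken to pair the libraries in those 7 comparisons, on the evidence of the counts alone. The main fits, which give the log2 changes and member counts above, did not use this pairing. It entered only through the alternative with the library number as a block. Positions and exon lengths are from GENCODE 44 (hg38), and promoter sequences from RefSeq (GRCh38.p14). The methods give an earlier GENCODE release for the counting, so some of these exon bases may not have been counted. The level of 1 listed marker gene is not reported here.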

Additional observations from a re-analysis of the deposited data

How the results depend on the processing

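The levels of all members in all groups moved by less than 1 SD with median-ratio factors. Of the log2 changes, those described as lost or gained above changed side of the threshold, and no change that had passed turned its sign. The number of members called with HIF-1α in batch 1 was 2 in place of 1 with DESeq2, with no filter, with only the groups compared and with the replicate block, since EGLN1 joined EGLN3. With HIF-2α R27E it was 1 in place of 0 with DESeq2 and with no filter, and 0 to 1 when each library was left out. Between HIF-2α/1α and HIF-1α it was 0 in place of 1 with the replicate block, and 0 to 1 when libraries were left out. It was 0 to 1 for HIF-1α against HIF-1αDM and 0 to 2 for HIF-1α against WT in batch 2. The replicate block changed no call of the other paired comparisons, but it took changes under 2-fold past the test in them. These were EGLN3 with HIF-2α R27E against WT (log2 0.99, adjusted p = 0.00102) and EGLN1 between HIF-2α and HIF-1α in batch 1 (log2 -0.91, adjusted p = 7.12e-05). Where the numbers did not pair the libraries, it took EGLN1 past the test between HIF-1α and R30E (log2 0.67, adjusted p = 0.00385) and between HIF-1α and HIF-1αDM (adjusted p = 3.92e-05). It did the same for EGLN3 between the structured domains of batch 2 (adjusted p = 9.99e-06 with the HIF-2α IDR and 0.000488 with the HIF-1α IDR). In the joint fit it took the difference in the EGLN1 response to HIF-2α between batches past the test (log2 -0.61, adjusted p = 0.00197). The difference in the P4HTM response to HIF-1α between batches, -0.05, became 0.04 with DESeq2, 0.04 with median-ratio factors and 0.07 with no filter, and ran from -0.1 to 0.1 without single libraries. For EGLN1 that difference ran from -0.38 to 0.07, and the EGLN3 interaction from -0.11 to 0.1. The causes were not tested. A further 98 log2 changes of members did not pass in any fit of all libraries. Of their 1126 values under the alternatives, 124 had the other sign, and none of those belonged to a change larger than 0.31. EGLN2 had the fewest reads, at 48 to 465 a library in batch 1 and 123 to 283 in batch 2, with coefficients of variation within groups of 55.4 to 95.6% and 8.38 to 19.5%, and the part of depth in that spread was not tested.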
